A study of Drosophila melanogaster with 8 samples.

Results

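The genes described here are 10 of the 14161 genes in the deposited count tables: spz, grass, Tl, tub, pll, cact, dl, Dif, Rel and dnr1. They were taken by exact symbol, as the extracellular activators, receptor, adaptors, inhibitor and transcription factors of the Drosophila Toll and NF-kappaB pathways. All 10 had a row in every library and passed the filter on low counts. RNA was measured by mRNA sequencing in S2R+ cells, a cultured fly line that resembles blood cells (hemocytes), in 8 libraries that form 4 groups of 2.

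Every group was transfected with Actin:dCas9-VPR, an activator made of a Cas9 without cutting activity joined to the VPR activation domain. The groups differed in their guide RNAs: a pool of 5 guides upstream of twist (Twist guides), a pool of 5 upstream of snail (Snail guides), the combination of these pools (both pools), or control guides. The sample labels place the control guides at the promoter of a luciferase reporter, whereas the series design and the treatment protocol describe a non-targeting guide. All libraries came from 1 cell line, no library of untransfected cells was analysed here, and the sources used here give neither the time after transfection nor the share of cells transfected.

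In the Toll pathway, a cascade of extracellular serine proteases cleaves the ligand Spätzle, which binds the receptor Toll. Toll acts through MyD88, the adaptor Tube and the kinase Pelle to remove the inhibitor Cactus from the Rel-family factors Dorsal and Dif, which then enter the nucleus. In the early embryo Dorsal activates twi and sna along the ventral side, and in fat body and blood cells Dif, Dorsal and Relish, the factor of the parallel Imd pathway, drive genes for antimicrobial peptides. The present design activates twi and sna from their own loci in cultured cells, downstream of Dorsal, so these data show the upstream pathway with its embryonic targets switched on.

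The libraries held 10752993 to 13351166 counts. The targeted genes followed the labels: twi averaged 27.3 ± 1.36 CPM (counts scaled to a common library size; SD, n = 2) in the Twist pair and 13.2 ± 0.711 CPM in the both-pool pair, and had 0 counts in the other 4 libraries, where the limit that a count of 0 allows is 3 counts. sna averaged 99.4 ± 3.14 CPM in the Snail pair and 122.9 ± 1.24 CPM in the both-pool pair, against 0 to 2 counts in each remaining library. The replicates of the control group differed more from each other than those of any other group. Between them 8.16% of the 8029 tested genes differed by over 1.5-fold with 0.5 CPM added to each value, against 3.43% (Twist), 2.48% (Snail) and 2.5% (both pools) in the other groups. Of the 10 genes, spz did so in the control group, and Dif, at 1.51-fold there without the addition, fell just short. Across genes, the difference between the control libraries correlated with transcript length (Spearman 0.34, over 7808 genes that are not independent replicates). The hemocyte markers were partly present: 8 of 11 passed the filter. Among these, crq averaged 184.2, srp 143.5 and Pxn 91.1 CPM. Others that passed were low: Hml had 0.275 to 1.76 CPM, Sr-CI 0.275 to 3.84, vkg 2.9 to 6.1 and Cg25C 3.4 to 7.6. The markers eater, He and nimC1 had 19, 12 and 6 counts over all libraries. The summed CPM of the 11 markers was 554.8 and 649.1 in the control pair, 544.5 to 549.9 in the Twist pair, 498.9 to 502.7 in the Snail pair and 509.5 to 536.9 in the pair with both pools. Markers of lamellocytes, crystal cells, fat body, neurons and muscle were called in 0 of 9 tested in each comparison with control by edgeR, and DESeq2 called 0 of the 9, 1 and 8 with an adjusted p. Of the 9, 0, 0 and 1 had an unadjusted p under 0.05 in the Twist, Snail and both-pool comparisons (8.28%, 14% and 16.5% of all genes). Their summed CPM was 691.6 to 695 in the control pair and 703.1 to 765.7 in the Twist pair. It was 617.9 to 665.5 in the Snail pair and 701.9 to 739.5 in the pair with both pools. Most of this sum was 1 lamellocyte marker, msn, at 591.5 to 734.8 CPM. CG8193 (crystal cells) had 7.66 to 12.8 CPM and up (muscle) 1.75 to 3.34. The neuronal markers elav and brp had 7.09 to 8.82 and 3.45 to 8.17 CPM. In contrast, lz, proPO-A1 and Mhc had 4, 3 and 4 counts in all and Lsp1alpha 0.

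All 10 genes were expressed, from tub, the adaptor, at the top to Tl, the receptor, and Dif at the bottom. Per length, as CPM divided by the kilobases of the longest annotated transcript, tub was highest at 61.4 and Dif lowest at 4.72 on average over the 8 libraries. Rel followed tub at 41.2, then cact at 34.6, pll at 31.3, dl at 28 and spz at 23.2, and below a gap came grass at 12.6, dnr1 at 11.9 and Tl at 6.86. tub therefore lay at the 80.7th percentile of the tested genes with a known length, and Tl and Dif at the 25.2nd and 20.6th.

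Some neighbours in this order were not separated. cact was above pll in 5 of the 8 libraries, pll above dl in 6, dl above spz in 6 and grass above dnr1 in 4. The other steps, from tub to Rel, Rel to cact, spz to grass, dnr1 to Tl and Tl to Dif, had the same direction in all 8. The order also rests on the transcript chosen: with the shortest annotated transcript, dl moved from the fifth to the second place at 53.1 CPM per kilobase, beside Rel at 53, and Dif at 8.19 moved above Tl at 7.47.

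**Figure D1:**
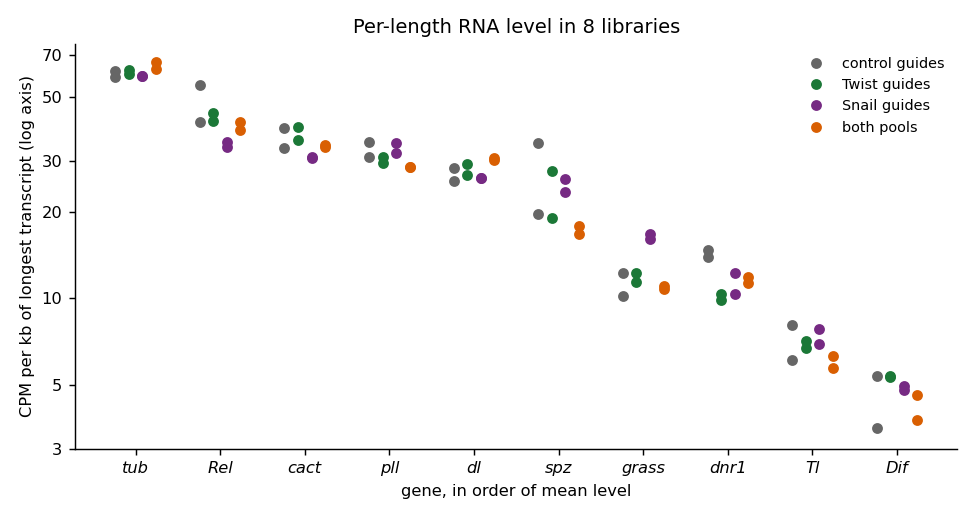
Level of each gene per length (CPM per kilobase of the longest transcript, log axis) in each of the 8 libraries, with 1 point per library coloured by guide group and the genes in order of their mean. tub lies above all others at 58.9 to 66.2, and Tl and Dif lie below all others at 8.11 or less.

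The genes lie in the BDGP6.54 assembly (Ensembl annotation, matched by symbol) on 3 chromosome arms. spz, grass, Tl and pll lie near each other on 3R: Tl (FBgn0262473) at 26799041 to 26842403, spz (FBgn0003495) at 27064990 to 27070070, grass (FBgn0039494) at 27157948 to 27159781 and pll (FBgn0010441) at 27251131 to 27253182. tub (FBgn0003882) lies at 4387742 to 4389813 and Rel (FBgn0014018) at 9044183 to 9047977 on the same arm. dl (FBgn0260632, 17436830 to 17450364) and Dif (FBgn0011274, 17413248 to 17433161) lie close together on 2L, 3668 bp apart, with cact (FBgn0000250) at 16313036 to 16326207. dnr1 (FBgn0260866) lies on 2R at 22563152 to 22592964, 392409 bp from the targeted gene twi, with 82 protein-coding genes between them. cact lies 834775 bp from sna, with 81 protein-coding genes between them. Annotated exons of cact, pll and Dif overlap, on the other strand, those of fzy (62 bp), TfIIA-L (31 bp) and CG15141 (252 bp). The sources used here do not say whether the counting used strand, so reads in these overlaps cannot be assigned to 1 gene.

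In the comparisons with control guides, where twi and sna were switched on, the difference of 1 Toll or NF-kappaB gene passed the test: dnr1, lower with Twist guides. With edgeR's quasi-likelihood test and Benjamini-Hochberg adjustment over all 8029 tested genes, 1 of the 10 was called at an adjusted p under 0.05 for Twist guides (dnr1, lower), against 0.934% of all genes, and at an unadjusted p under 0.05 it was also the only 1 (8.28% of all genes). For Snail guides 0 of 10 were called, against 0.324% of all genes, with 4 of 10 at an unadjusted p under 0.05 (14% of all genes) and 1 called by DESeq2 (Rel), which gave no adjusted p for grass and Dif. For both pools 0 of 10 were called, against 1.57% of all genes, with 4 of 10 at an unadjusted p under 0.05 (16.5% of all genes) and 0 called by DESeq2. The median log2 fold change of the 10 was -0.01 in the Twist, -0.03 in the Snail and -0.16 in the both-pool comparison, beside -0.01, 0.00 and -0.01 over all tested genes. The groups did not overlap for 2 of the 10 genes in the Twist comparison (31.5% of all genes), for 4 in the Snail comparison (43.2%) and for 5 in that of both pools (44.2%). These 3 comparisons share the control libraries. In bulk RNA, fewer cells expressing a gene and less RNA per cell cannot be told apart.

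**Figure D2:**
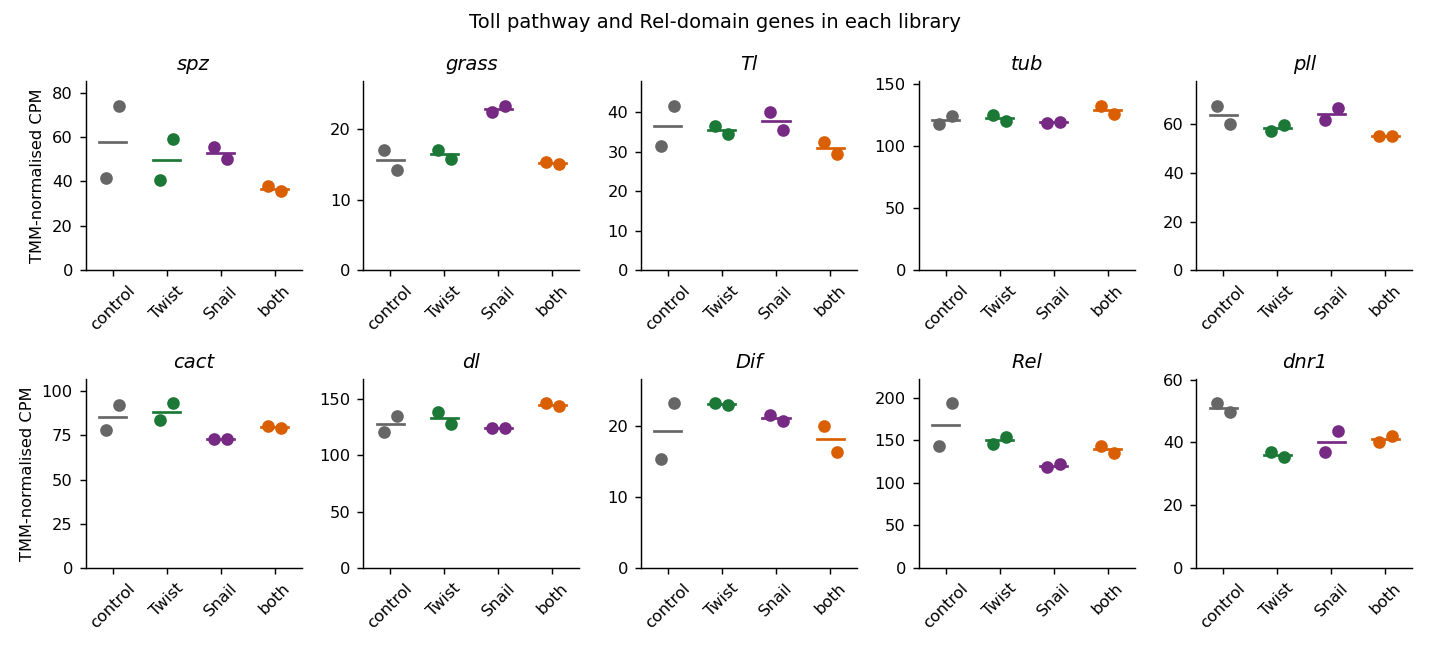
TMM-normalised CPM of each gene in each library, 1 panel per gene with its axis from 0, with 1 point per library and a line at the mean of the 2 libraries of a group. dnr1 is highest in the 2 control libraries, grass in the 2 Snail libraries, and the control points of spz, Dif and Rel lie apart.

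The extracellular steps were measured by spz, the ligand, and grass, a clip-domain serine protease of the cascade that leads to its cleavage. spz was the most variable of the 10 genes. It had 41.7 and 74.1 CPM in the control pair, 40.5 and 59.2 in the Twist pair, 55.5 and 49.9 in the Snail pair and 37.9 and 35.7 in the pair with both pools. The control values differed from each other 1.78-fold, and they enclosed every library with Twist or Snail guides except the lower Twist one. The libraries with both pools lay below all 6 others. Against control, spz differed by -0.65 ± 0.33 (log2 fold change ± SE) with both pools, at an adjusted p of 0.404. Without control replicate 1, which had the lower level, the difference was -1.01, and without control replicate 2 it was -0.18, so the value depends on the control library.

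grass was highest with Snail guides. Its levels were 17 and 14.2 CPM in the control pair, 17 and 15.8 in the Twist pair, 22.4 and 23.3 in the Snail pair and 15.3 and 15 in the pair with both pools. Both Snail libraries lay above every other library, and the 3 other groups lay within 14.2 to 17 CPM. grass with both pools was lower than with Snail guides alone by 0.59 on the log2 scale (log2 fold change -0.59 ± 0.12, a fold of 0.663, edgeR adjusted p = 0.0452). It was the 1 of 10 genes called in that comparison, where 0.909% of all genes and 0.199% in the lower direction were called, and 4 of the 10 had an unadjusted p under 0.05 (18.4% of all genes). The difference between Snail and control guides was 0.55 ± 0.12, at an adjusted p of 0.0999. The difference between Twist and Snail guides was -0.48 ± 0.12, at an adjusted p of 0.113, in a comparison where 0 of 10 genes were called (1.08% of all genes), 3 had an unadjusted p under 0.05 (11.9% of all genes) and DESeq2 called 0. The groups did not overlap for 9 of the 10 genes between both pools and Snail guides (59.7% of all genes) and for 8 between Twist and Snail guides (51.9%).

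The grass call stood near the threshold. It was lost on leaving out any 1 library of the Snail, Twist or both-pool groups, with adjusted p of 0.058 to 0.397 and log2 fold changes of -0.61 to -0.56. DESeq2 gave 0.0705. Without both control libraries, an alternative chosen after the data were seen, grass differed by -0.59 between both pools and Snail guides (adjusted p = 0.00139) and by -0.48 between Twist and Snail guides (adjusted p = 0.00673). In those fits 13.9% and 10.4% of all genes were called. Without control replicate 1, grass was higher with Snail guides than with control guides by 0.69 (adjusted p = 0.00219), in a fit that called 17.9% of all genes, and without control replicate 2 the difference was 0.42 (0.201). The 3 tested genes with the pattern most like grass, by Pearson's correlation of log2 CPM over the 8 libraries, were CG11982 (0.962), CG2938 (0.961) and CG9114 (0.961), given as a description without a test.

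The receptor and its cytoplasmic partners varied little. Tl, the receptor, had 31.4 and 41.6 CPM in the control pair, 36.5 and 34.5 in the Twist pair, 40 and 35.5 in the Snail pair and 32.4 and 29.5 in the pair with both pools. The control libraries spanned all but 1 of the other values, and Tl was called in 0 of the 7 contrasts. The largest of its log2 differences from control was -0.24 ± 0.13, with both pools (adjusted p = 0.386). Without control replicate 1 that difference was -0.42, and without control replicate 2 it was -0.02.

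tub, whose product links Toll and MyD88 to Pelle, was the steadiest of the 10 genes. It had 118.3 and 124.2 CPM in the control pair, 125.3 and 120.4 in the Twist pair, 119.2 and 119.4 in the Snail pair and 132.8 and 126.2 in the pair with both pools. Its highest library was 1.12 times its lowest. The 95% intervals of its log2 differences from control were -0.14 to 0.18 (Twist guides), -0.18 to 0.14 (Snail guides) and -0.07 to 0.26 (both pools). At this depth a change of tub beyond 0.26 in either direction lay outside all 3 intervals.

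pll, the Pelle kinase, had 67.7 and 60.1 CPM in the control pair, 57.2 and 59.7 in the Twist pair, 62 and 66.8 in the Snail pair and 55.1 and 55.3 in the pair with both pools. The Twist and both-pool libraries all lay below both control libraries, and the Snail libraries lay between the control values. The log2 difference from control was -0.13 ± 0.09 for Twist guides (adjusted p = 0.804) and -0.21 ± 0.09 for both pools (adjusted p = 0.268).

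cact encodes the inhibitor that holds Dorsal and Dif in the cytoplasm, and in flies it is itself a target of Toll signalling. It had 78.3 and 92.5 CPM in the control pair, 83.8 and 93.1 in the Twist pair, 72.78 and 72.76 in the Snail pair and 80.3 and 78.9 in the pair with both pools. The Snail libraries were the lowest of the 8. The log2 difference between Snail and control guides was -0.23 ± 0.09 (adjusted p = 0.308), and that between Twist and Snail guides was 0.28 ± 0.09 (adjusted p = 0.286). Without control replicate 1 the former was -0.35, and without control replicate 2 it was -0.11, so it depended on the control library. Without both control libraries the latter was 0.28 at an adjusted p of 0.0159.

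Of the 3 Rel-domain factors, dl and Rel were abundant and Dif scarce. dl, the embryonic activator of twi and sna, had 120.5 and 134.6 CPM in the control pair, 138.6 and 127.2 in the Twist pair, 124.2 and 123.7 in the Snail pair and 145.8 and 143.5 in the pair with both pools. Both-pool libraries were the highest of the 8, and the remaining groups overlapped with control. dl was called in 0 of the 7 contrasts. Its log2 difference from control was 0.06 ± 0.08 in the Twist pair (95% interval -0.12 to 0.23), -0.04 ± 0.08 in the Snail pair (-0.22 to 0.13) and 0.18 ± 0.08 in the both-pool pair (0.01 to 0.36, adjusted p = 0.285). Against Snail guides, both pools differed by 0.22 ± 0.08 (adjusted p = 0.172), and by 0.22 at an adjusted p of 0.026 without both control libraries.

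Dif, the Rel factor that acts beside Dorsal in the immune response, had 15.3 and 23.1 CPM in the control pair, 23.1 and 22.9 in the Twist pair, 21.4 and 20.7 in the Snail pair and 19.9 and 16.3 in the pair with both pools. The control libraries differed from each other 1.51-fold and enclosed all other libraries. The log2 difference between Twist and control guides was 0.26 ± 0.17 (adjusted p = 0.783). It became 0.59 without control replicate 2, the higher of the control libraries, and -0.01 without control replicate 1. In every library Dif had less RNA per length than dl, at a ratio of 0.124 to 0.198 with the longest transcripts. The ratio of cact to the sum of dl and Dif per length was 0.96 to 1.23.

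Rel, which encodes Relish, was lowest with Snail guides. It had 143.1 and 193.1 CPM in the control pair, 145.3 and 154.1 in the Twist pair, 118 and 122 in the Snail pair and 143.5 and 134.6 in the pair with both pools. The Snail libraries lay below the other 6, and control replicate 2 lay above all of them. The log2 difference between Snail and control guides was -0.49 ± 0.12 (a fold of 0.714, 95% interval -0.75 to -0.22). It did not pass edgeR's test (adjusted p = 0.148) and passed DESeq2's (adjusted p = 0.0195). The value depended on the control library: it was -0.69 without control replicate 1 and -0.25 without control replicate 2. Without both control libraries, Rel was higher with Twist guides than with Snail guides by 0.32 (adjusted p = 0.00264) and higher in the both-pool pair than in the Snail pair by 0.21 (adjusted p = 0.0345). With the control libraries in the fit, these differences were 0.32 ± 0.12 (adjusted p = 0.359) and 0.21 ± 0.12 (adjusted p = 0.36). The hemocyte markers summed to their lowest levels in the same Snail libraries. The same held for the markers of other cell types, at 617.9 and 665.5 CPM, against 691.6 to 765.7 in the other libraries. Of the hemocyte markers, srp and ush were lowest there, whereas Pxn was lowest with both pools and crq in Twist replicate 2. The part of either set of markers in the Rel values was not tested.

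dnr1, whose product restrains the caspase Dredd in the Imd pathway, was highest with control guides. It had 52.4 and 49.6 CPM in the control pair, 36.9 and 35.2 in the Twist pair, 36.9 and 43.6 in the Snail pair and 40.2 and 42.1 in the pair with both pools. Both control libraries lay above the other 6. With Twist guides dnr1 fell by 0.50 on the log2 scale (log2 fold change -0.50 ± 0.10, a fold of 0.707, 95% interval -0.71 to -0.29, edgeR adjusted p = 0.031). It was among the 0.112% of genes called lower in that comparison. The differences were -0.34 ± 0.10 for Snail guides (adjusted p = 0.189) and -0.31 ± 0.10 for both pools (adjusted p = 0.15).

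The lower dnr1 level with Twist guides kept its direction in all 17 alternative settings, with log2 fold changes of -0.54 to -0.46, and was called in 11 of them. It was not called without Twist replicate 1 (adjusted p = 0.18), Twist replicate 2 (0.298), both-pool replicate 1 (0.0938) or both-pool replicate 2 (0.0854), nor in a fit of the Twist and control libraries alone (0.15), nor at a threshold of 0.01. DESeq2 gave an adjusted p of 0.0475. A correction for transcript length gave -0.51 and an adjusted p of 0.0248. By the same correlation, the genes most like dnr1 were Rpp30 (0.946), kuk (0.938) and CG18324 (0.936).

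**Figure D3:**
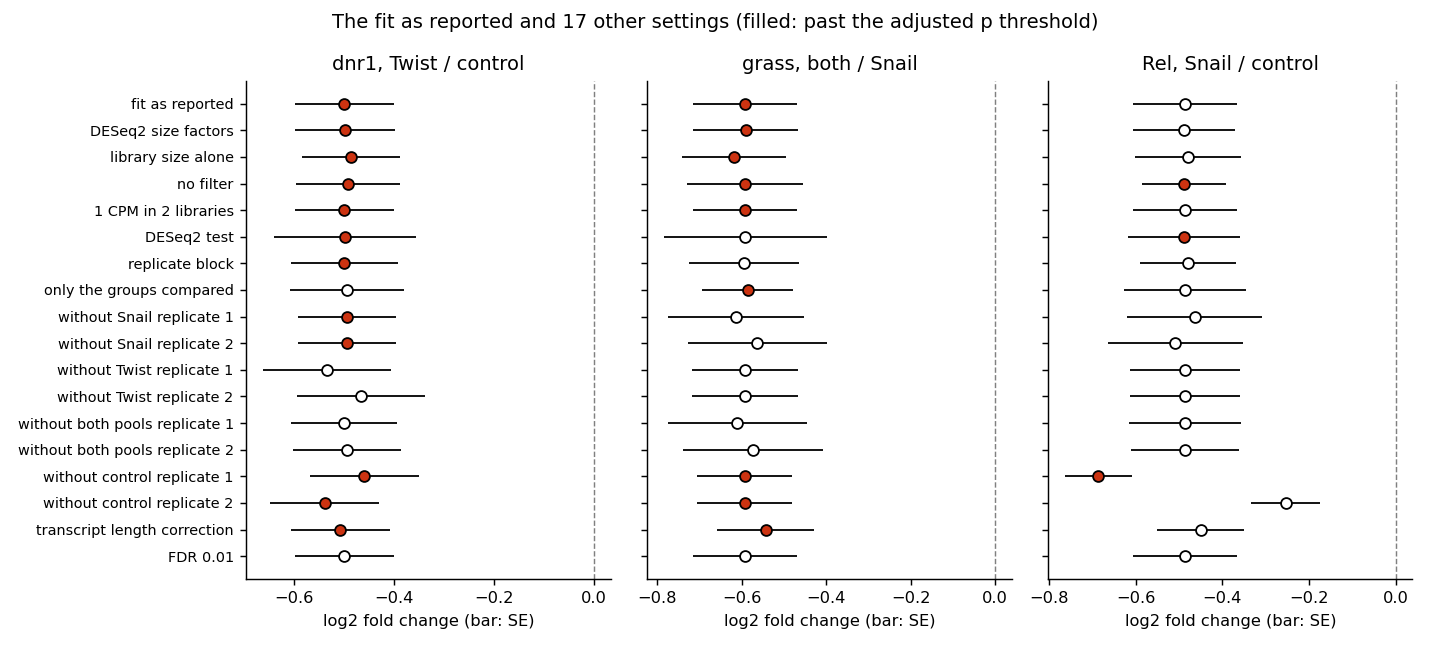
Log2 fold change with its SE (bars) of dnr1 with Twist guides against control, grass with both pools against Snail guides and Rel with Snail guides against control, in the fit as reported and in 17 other settings, filled where the adjusted p passed its threshold (0.05, or 0.01 in the last setting). All values lie below 0, and the Rel value moves with the control library left out, from -0.69 to -0.25.

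In the both-pool pair twi averaged 13.2 CPM, against 27.3 in the Twist pair. sna averaged 122.9 CPM there, against 99.4 in the Snail pair. At these unequal levels, the design tests whether the pools, rather than twi and sna, together act as the sum of each alone. This interaction, on the log2 scale, was called for 0 of the 10 genes by edgeR and 0 by DESeq2 (0.174% of all genes by edgeR), and 3 had an unadjusted p under 0.05 (14.6% of all genes). It was -0.66 ± 0.18 for grass (adjusted p = 0.129), 0.53 ± 0.14 for dnr1 (adjusted p = 0.13) and 0.38 ± 0.17 for Rel (adjusted p = 0.333). All 3 were called without control replicate 1, at -0.80 (adjusted p = 0.00706) for grass, 0.49 (adjusted p = 0.031) for dnr1 and 0.58 (adjusted p = 0.000652) for Rel, in a fit that called 11.8% of all genes. Without control replicate 2 the calls were dnr1 at 0.57 (adjusted p = 0.0258) and Dif at -0.80 (adjusted p = 0.0187), where 4.83% of all genes were called. Between both pools and Twist guides, 0 of 10 genes were called by edgeR or DESeq2 (1.05% of all genes by edgeR) and 0 had an unadjusted p under 0.05 (18.2% of all genes), although the groups did not overlap for any of the 10 (58.6% of all genes).

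**Figure D4:**
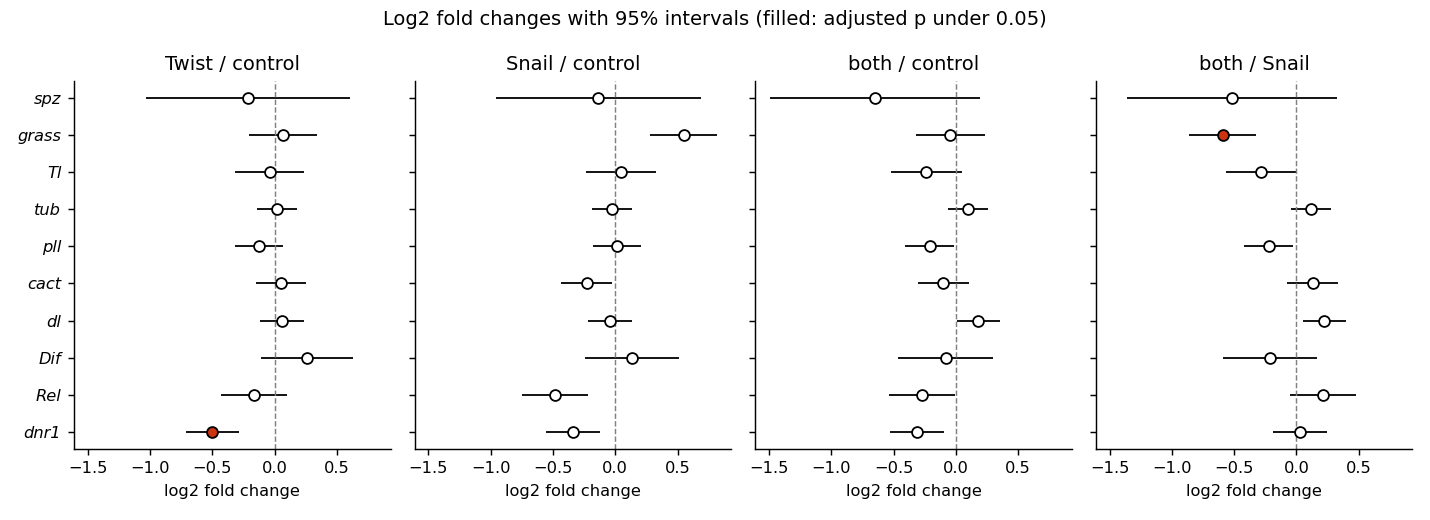
Log2 fold changes of the 10 genes with 95% intervals in 4 comparisons: Twist guides, Snail guides and both pools against control, and both pools against Snail guides (filled points, adjusted p under 0.05). The filled points are dnr1 with Twist guides at -0.50 and grass with both pools against Snail guides at -0.59, and spz has the widest intervals.

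No other Toll pathway gene of the list was called against control guides by edgeR in the fit as reported. Of 34 further genes for ligands, proteases, pattern recognition proteins, serpins, adaptors and regulators, 20 passed the filter, and edgeR called 0 of them in each comparison with control. At an unadjusted p under 0.05 there were 2, 4 and 5 in the Twist, Snail and both-pool comparisons (8.28%, 14% and 16.5% of all genes). DESeq2 called 0 of 20, 0 of 13 and 1 of 19 with an adjusted p (the last GNBP3). The median log2 fold change of the 20 was -0.01, -0.03 and 0.00 in the same order, beside the medians over all genes given above. Myd88, the adaptor that joins Toll to Tube, had 29.1 to 36.7 CPM over the 8 libraries. The paralogous ligand genes spz3 and spz5 had 0 counts in every library, and spz4, spz6 and NT1 had at most 4 counts in any library, so spz was the main Spätzle-family transcript counted.

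Among these genes, 2 were called between activated groups. They were 1 of 20 between Twist and Snail guides (1.08% of all genes) and 1 of 20 between both pools and Snail guides (0.909%). At an unadjusted p under 0.05 there were 5 and 6 of the 20 (11.9% and 18.4% of all genes). Spn27A, a serpin that inhibits proteases of the cascade, had 39.5 and 35.6 CPM in the control pair, 26.6 and 29.9 in the Twist pair, 38.6 and 40 in the Snail pair and 28.8 and 30.7 in the pair with both pools. All 4 libraries with Twist guides, alone or together with Snail guides, lay below the other 4. Spn27A was lower with Twist than with Snail guides by 0.47 on the log2 scale (-0.47 ± 0.10, edgeR adjusted p = 0.0432), a call lost with DESeq2 (0.118) with library size alone (0.0576), with a replicate block (0.0625) and on leaving out any 1 library of the Twist, Snail or both-pool groups (0.107 to 0.435). Against control it differed by -0.41 ± 0.10 with Twist guides (adjusted p = 0.12), and by -0.48 without control replicate 2. Gprk2, a kinase needed for full Toll signalling in flies, was higher with both pools, at 155.3 and 155.7 CPM, than with Snail guides, at 120.2 and 121.2 CPM. The log2 difference was 0.37 ± 0.08 (edgeR adjusted p = 0.0479). The call was lost on leaving out any 1 library of the Twist, Snail or both-pool groups. The log2 difference was 0.37 in each of these fits. The call was also lost with library size alone (adjusted p = 0.0577), a replicate block (0.0763) and the transcript length correction (0.066).

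Without a filter on low counts, edgeR called Spn27A lower with Twist guides than with control guides (adjusted p = 0.0461). In the same setting it called GNBP3 lower with Snail guides (0.0112) and Spn5 lower with both pools (0.0211). None of the following was called against control in the fit as reported. GNBP3, a sensor of fungal glucan, differed by -0.45 ± 0.12 with Snail guides (adjusted p = 0.176) and by -0.53 ± 0.12 with both pools (adjusted p = 0.0636). The both-pool difference of GNBP3 was called in 6 of 17 other settings: by DESeq2 (0.0241), with a replicate block (0.0207), without a filter (0.00098), without either Twist library (both 0.0195) and without control replicate 1 (0.0147). Spn5, a serpin, differed by -0.31 ± 0.08 with both pools (adjusted p = 0.0899). GNBP1, which acts with a peptidoglycan receptor, differed by -0.23 ± 0.09 with Twist guides (adjusted p = 0.501). mop, an endosomal factor needed for Toll signalling, differed by -0.28 ± 0.11 with Snail guides (adjusted p = 0.296).

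Of the 8 further receptors of the Toll family, 3 passed the filter and edgeR called 0 in each comparison with control. DESeq2 called 0 among the 3, 1 and 3 to which it gave an adjusted p in the Twist, Snail and both-pool comparisons. In the same order, 0, 2 and 0 had an unadjusted p under 0.05 (8.28%, 14% and 16.5% of all genes). Tollo had 43 to 74.5 CPM, Toll-7 2.35 to 6.22 and 18w 1.4 to 2.96 over the 8 libraries. Toll-7 was highest in the Snail libraries, at 6.22 and 4.42 CPM. Its log2 difference from control was 0.87 ± 0.26 (adjusted p = 0.2). Tollo differed by -0.42 ± 0.16 with Snail guides (adjusted p = 0.299), and 18w by 0.44 ± 0.34 with both pools (adjusted p = 0.554).

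In the Imd pathway, where Relish acts, 21 of 24 further genes passed the filter. edgeR called 2 higher in the Twist comparison, 0 in the Snail comparison and 2 higher in that of both pools, and 0 lower in each, against 0.934%, 0.324% and 1.57% of all genes called. For Snail guides 6 of the 21 had an unadjusted p under 0.05 (14% of all genes) and DESeq2 called 0 of 16 with an adjusted p. The median log2 fold change of the 21 was -0.03, -0.07 and -0.05. The called genes were regulators rather than the kinases and adaptors of the core pathway. PGRP-LB, an amidase that degrades peptidoglycan, had 0.183 and 0.464 CPM in the control pair, 26.2 and 19.3 in the Twist pair, 0.18 and 0.0834 in the Snail pair and 12.3 and 12.3 in the pair with both pools. With Twist guides it rose by 6.09 ± 0.32 on the log2 scale (edgeR adjusted p = 1.56e-07). With both pools it rose by 5.20 ± 0.35 (adjusted p = 2.40e-06). The control pair had 2 and 5 counts of PGRP-LB, so the size of these rises rests on few counts.

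sick, needed for Relish activation in cultured fly cells, had 16 and 17.4 CPM in the control libraries and 32.5 and 25.1 with Twist guides. It rose by 0.78 ± 0.14 on the log2 scale (edgeR adjusted p = 0.0142), and leaving out Twist replicate 1 ended the call (log2 change 0.59, adjusted p = 0.182). pirk, an inhibitor of Imd receptors, had 48.4 and 40.3 CPM in the control libraries and 66.7 and 79.9 with both pools. It rose by 0.72 ± 0.11 (edgeR adjusted p = 0.00483), and the call was lost without both-pool replicate 2 (0.59, adjusted p = 0.127). Of those not called, CYLD, a deubiquitinase, differed by -0.40 ± 0.11 with Snail guides (adjusted p = 0.148), key by -0.35 ± 0.11 (adjusted p = 0.225) and Tab2 by -0.25 ± 0.10 (adjusted p = 0.275).

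The antimicrobial effectors, the best known outputs of Dif, Dorsal and Relish, were close to absent in all groups. Of 36 effector genes, 14 had 0 counts in every library and 3 passed the filter. A count of 0 in 1 library allows up to 0.22 to 0.278 CPM, for counting error only. The summed CPM of all 36 was 4.03 and 5.48 in the control pair, 4.12 and 6.25 in the Twist pair, 4.68 and 4.84 in the Snail pair and 3.25 and 4.99 in the pair with both pools. Drs, which encodes the antifungal peptide Drosomycin and is the usual readout of Toll signalling, had 34 counts over the 8 libraries, and Dpt, a usual readout of Imd signalling, had 28. edgeR called 0 of the 3 tested genes in each comparison with control, with 0 at an unadjusted p under 0.05, and DESeq2 called 0 for Twist guides and gave no adjusted p for the other comparisons. With Twist guides CecC differed by 0.83 ± 0.71 (adjusted p = 0.872), IM1 by -0.80 ± 0.50 (0.772) and IM23 by 0.53 ± 0.59 (0.918).

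Of 30 further genes known as Dorsal targets in the embryo, 20 passed the filter. edgeR called 2 higher in the Twist comparison, 3 in the Snail comparison and 3 in that of both pools, and 0 lower, against 0.934%, 0.324% and 1.57% of all genes called. At an unadjusted p under 0.05 there were 4, 11 and 9 of the 20 (8.28%, 14% and 16.5% of all genes). DESeq2 called 2 of 20, 0 of 7 and 3 of 18 with an adjusted p. The median log2 fold change of the 20 was 0.16, 0.02 and 0.22. The called genes were htl, the FGF receptor of the mesoderm, pyr, one of its ligands, and the integrin subunit gene if. htl rose by 3.92 ± 0.23, 2.70 ± 0.26 and 3.88 ± 0.23 in the Twist, Snail and both-pool comparisons (edgeR adjusted p = 4.42e-07, 0.000194 and 8.25e-07). pyr rose by 4.30 ± 0.34 with Snail guides and 3.60 ± 0.36 with both pools (adjusted p = 2.25e-05 and 0.000181). In the order given for htl, if rose by 1.39 ± 0.24, 1.36 ± 0.24 and 1.42 ± 0.24 (adjusted p = 0.013, 0.0365 and 0.0113). In the control pair htl had 18 and 9 counts and pyr 4 and 7, so the size of their rises rests on few counts. Of those not called, fog differed by -0.31 ± 0.10 with Twist guides (adjusted p = 0.331). The if calls depended on single libraries: the Twist call did not hold without Twist replicate 2 (adjusted p = 0.142), nor the both-pool call without both-pool replicate 1 (0.168), nor the Snail call without either Snail library (0.454 and 0.136), either both-pool library (0.0857 and 0.0651) or control replicate 2 (0.055). The list was not split into genes that Dorsal acts on itself and genes reached through twi or sna, which were switched on here. dl itself was called in none of these comparisons by edgeR or DESeq2.

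Of the hemocyte markers, edgeR called 1 of 8 tested, Pxn, lower with both pools (-0.37 ± 0.09, adjusted p = 0.0499). Of all genes 1.57% were called there, and 3 of the 8 markers had an unadjusted p under 0.05 (16.5% of all genes). The Pxn call held in 7 of 17 other settings. It was lost on leaving out any 1 library of the Twist, Snail or both-pool groups (log2 fold changes of -0.47 to -0.28). It was also lost with a filter of 1 CPM in 2 libraries (adjusted p = 0.052) and with a replicate block (0.072). A fit of only the groups compared gave 0.192, and a threshold of 0.01 ended the call too. For Twist and Snail guides 0 were called, with 1 at an unadjusted p under 0.05 in each (8.28% and 14% of all genes). DESeq2 called 0 of 8, 1 of 4 (srp, 0.0483) and 1 of 7 with an adjusted p in the Twist, Snail and both-pool comparisons. srp, the GATA factor of blood cells, differed by -0.36 ± 0.09 with Snail guides (adjusted p = 0.121). crq, a scavenger receptor, differed by -0.20 ± 0.08 with Twist guides (adjusted p = 0.514).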

How the data were processed

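Messenger RNA of 8 libraries of S2R+ cells was analysed, 2 in each of 4 guide groups taken from the sample titles. The authors deposited 1 table per library, with unnormalised counts for each gene symbol. Per the submitters' processing notes, TopHat2 (version 2), Bowtie2, HTSeq and DESeq were used, with no order or role stated. The sources used here do not give the genome build, the annotation, the count mode or whether strand was used. Per the labels' protocols, total RNA was extracted with TRIZOL and made into Illumina mRNA libraries.

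From the counts, differences were tested with edgeR 4.0.16 (limma 3.58.1, R 4.3.3). Of the genes, 8029 passed filterByExpr at a minimum count of 10, which kept at least 99.94% of the counts, and 6132 did not. TMM factors were 0.983 to 1.02. The quasi-likelihood model was fitted robustly on the 4 groups with all 8 libraries, leaving 4 residual degrees of freedom, and its common biological coefficient of variation was 0.0792. Each of 7 contrasts was tested with F tests and adjusted by Benjamini-Hochberg over all tested genes, with a threshold of 0.05. An adjusted p comes from this model where neither DESeq2 1.42.0 nor another setting is named. With 2 libraries a group, p-values measure only the spread between these samples, stated in the series to be biological replicates. Where leaving out a library left 1 in a group, the lone library was taken to have the spread of the other groups. An SE is the log2 fold change over the square root of its F, and 95% intervals use the gene's degrees of freedom. Levels are TMM-normalised CPM, divided by the longest transcript in the Ensembl annotation of BDGP6.54 where genes are compared. Of the symbols, 10669 were current, 2955 were older and matched, and 537 had no match. The procedure was also run on simulated counts drawn with the same spread for all genes and groups. That run does not cover the wider spread between the control libraries. Plots used Python 3.11.15 and matplotlib 3.10.9.

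The genes and the lists (other Toll pathway genes, Toll-family receptors, Imd pathway, antimicrobial effectors, Dorsal targets, hemocyte and other cell markers) were chosen with earlier results of these data known. Named besides the 10 genes, twi and sna were each list's called genes, up to 3 more with the smallest p per comparison with control, and the 3 genes most like each called member. Myd88, the Spätzle paralogues, Drs, Dpt, Hml, Sr-CI, Cg25C and the markers given by counts were named after their values were seen. Settings varied were the normalisation, filter, test, replicate block, libraries fitted, transcript length correction and threshold.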

Additional observations from a re-analysis of the deposited data

Results flagged for a closer look

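The response of htl, the FGF receptor gene, to both pools together differed from the sum of its responses to each pool alone. The interaction was -2.74 ± 0.31 on the log2 scale (edgeR adjusted p = 0.00589). It does not compare equal levels of the targeted genes: twi was lower with both pools than with Twist guides, and sna higher than with Snail guides. The control pair had 18 and 9 counts of htl. The call was lost without Snail replicate 2 (adjusted p = 0.0557) and without both-pool replicate 2 (adjusted p = 0.0527).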

How the results depend on the processing

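Over 17 planned settings, the number of the 10 genes called changed as follows. Without a filter on low counts it was 2 for Snail guides against control (grass, Rel), 1 for Twist against Snail guides (grass) and 2 for the interaction (grass, dnr1). In those fits 1.82%, 1.66% and 1.98% of all genes were called. DESeq2 called 1 for Snail guides against control (Rel) and 0 for both pools against Snail guides. Of all genes to which it gave an adjusted p, it called 1.8% and 2.38%. Fits of only the groups compared called 0 for Twist guides against control, 6 for both pools against Snail guides and 3 for Twist against Snail guides, where 0.486%, 19.3% and 8.89% of all genes were called. At a threshold of 0.01, 0 were called for Twist guides against control and for both pools against Snail guides (0.511% and 0.187% of all genes). Without both control libraries, chosen after the data were seen, 3 were called for both pools against Snail guides (13.9% of all genes). For Twist against Snail guides 3 were called (10.4% of all genes). The common biological coefficient of variation was 0.0496 in that fit instead of 0.0792. Leaving out 1 library at a time changed the count in every contrast except both pools against Twist guides. DESeq2 size factors, library size alone, a filter of 1 CPM in 2 libraries and the length correction kept each count within 1.5 times. Values of the named genes called in the fit as reported did not change sign in any of these settings. The value of Dif with Twist guides, not called in the fit as reported, was 0.59 without control replicate 2 and -0.01 without control replicate 1. The causes were not tested.

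The replicate number as a block gave 0 calls for both pools against Snail guides (grass, adjusted p = 0.0547) and the same counts in the other contrasts. Same-numbered libraries did not deviate together (correlations of -0.16 to 0.14 over 8029 genes), so the numbers are not taken to pair them.

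Over all genes, the calls for Snail guides against control were 26 as reported, 218 without a filter, 83 with DESeq2, and 1441 and 65 without control replicate 1 and 2. With 2 libraries a group, and control libraries far apart, differences of the size seen for most of these genes could not be separated from the spread.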
